A study of Mus musculus with 4 samples.

Results

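The genes described here encode the inducible subunits of the immunoproteasome, the PA28 activator that caps the proteasome, and the proteins that carry, trim and load peptides for MHC class I molecules in the endoplasmic reticulum. The set was defined by 10 gene symbols, Psmb8, Psmb9, Psmb10, Psme1, Psme2, Tap1, Tap2, Tapbp, Tapbpl and Erap1. All 10 were found among the 14936 genes of the deposited table, and all 10 passed the filter on low values, Psmb9 only through the mutant libraries. The samples were 4 mouse hearts taken at E18.5 and profiled by poly(A)-selected RNA sequencing, and every embryo was Adar1 (flox/flox) in the C57BL/6 strain. The 2 control embryos, 47 and 50, were Nkx2.5-Cre (WT/WT), and the 2 mutant embryos, 51 and 54, were Nkx2.5-Cre (Cre/WT). Adar1 encodes an enzyme that turns adenosine into inosine in RNA, and Nkx2.5-Cre places the Cre recombinase under a gene of the early heart. Heart cells of lineages that never expressed Nkx2.5 would keep the floxed allele intact, and the mutants alone carried Cre, so an effect of the Cre allele and one of Adar1 targeting cannot be told apart.

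The proteasome degrades proteins into peptides in a barrel whose beta subunits hold the catalytic sites. Interferon-treated cells build a version in which PSMB8, PSMB9 and PSMB10 replace the constitutive subunits PSMB5, PSMB6 and PSMB7, and leukocytes carry this version without treatment. Peptides then pass into the endoplasmic reticulum through the TAP1 and TAP2 transporter, are shortened by the aminopeptidase ERAP1, and are loaded onto class I molecules with the help of tapasin (Tapbp) and its relative TAPBPR (Tapbpl). Interferons act on many of these genes through factors that include IRF1 and NLRC5.

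Promoter sequences are shown because several members lie side by side and changed together. RefSeq windows (GRCm38.p6) from 250 bases before to 50 after the gene start were held for 8 of the 10 members. They were searched on both strands for the interferon-stimulated response element core (GAAA, any 2 bases, GAAA) and the STAT-binding GAS core TTCNNNGAA. The GC box GGGCGG and the CCAAT box (CCAAT) were searched in the same way. Within a single window, no match overlapped another. The response element core was found in 2 of the 8 members, Psme1 and Erap1, against 3.43% of all 32817 mouse promoter windows held. The GAS core was found in 1 of 8, Psmb8, against 8.29% of windows. The GC box was present in 6 of 8 (35.6% of windows) and the CCAAT box in 3 of 8 (37.4%). Psmb9 and Tap1 are transcribed away from each other from RefSeq starts with 225 bases between them, so their windows overlap. That stretch is given in full on the Tap1 strand (chr17:34187331-34187555, GRCm38.p6). A CCAAT box and a GC box, the latter read from the other strand, are in capitals. Both boxes are the matches of Psmb9 as well as of Tap1, so the counts above hold each of them for both genes. The other 3 stretches end 20 bases after the RefSeq start of the gene and carry the response element core (Psme1, chr14:55578364-55578513, and Erap1, chr13:74639723-74639872) or the GAS core (Psmb8, chr17:34198065-34198214) in capitals. A match is a description of these letters and not a shown binding site.
Psmb9-Tap1: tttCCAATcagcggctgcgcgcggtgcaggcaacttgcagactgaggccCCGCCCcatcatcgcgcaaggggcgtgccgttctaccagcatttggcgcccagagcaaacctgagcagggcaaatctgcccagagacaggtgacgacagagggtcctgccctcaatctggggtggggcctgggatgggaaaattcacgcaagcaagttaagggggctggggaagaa
Psme1: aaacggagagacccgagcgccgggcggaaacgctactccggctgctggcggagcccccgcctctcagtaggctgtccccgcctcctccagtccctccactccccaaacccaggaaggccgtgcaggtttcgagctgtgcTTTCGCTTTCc
Erap1: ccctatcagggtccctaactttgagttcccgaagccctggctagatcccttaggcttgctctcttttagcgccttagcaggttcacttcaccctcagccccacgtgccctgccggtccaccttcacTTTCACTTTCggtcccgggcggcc
Psmb8: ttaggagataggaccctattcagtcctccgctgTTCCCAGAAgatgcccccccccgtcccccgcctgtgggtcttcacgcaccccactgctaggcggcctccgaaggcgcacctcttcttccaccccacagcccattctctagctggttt

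Depth was similar across the embryos, from 7457103 to 8998872 reads assigned to genes of the table. Levels are in CPM, read counts scaled for library size, in which a single read equals 0.109 to 0.138 depending on the library. Adar, the targeted gene, stood at 30.2 and 35.7 CPM in controls 47 and 50 and at 195 and 213 CPM in mutants 51 and 54, so the gene-level reads were higher, not lower, in the libraries labelled mutant. The labels do not say which exons were floxed, and these reads therefore do not check the deletion. Nkx2-5, the gene that the Cre allele is named for, fell from 150.3 and 143 CPM to 69.2 and 92.8 CPM (log2 fold change -0.86, limma adjusted p = 0.0080), and lost its call without control 47 or control 50 (adjusted p = 0.121 and 0.0986). For embryos 51 and 54 the genotype label holds wildtype and KO together, so groups follow the sample titles. Heart muscle genes were present in every library, with Myh7 between 6706 and 14573 CPM.

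All 10 genes rose in the mutant hearts (limma on log2(CPM + 1), Benjamini-Hochberg adjusted p under 0.05 over all genes tested). Of the 14869 genes tested, 17.8% rose by the same criterion. Both mutants lay above both controls for all 10, which held for 36.0% of genes tested, and for 0 members did both lie below, against 36.3%. The median log2 fold change was 1.91 over the members and -0.0058 over all genes tested. The ratio of mean CPM, mutant over control, ran from 1.81 for Psme1 to 50.4 for Psmb8 and exceeded 2 for 9 of the 10. Together the 10 genes took 0.0334% and 0.0327% of the reads in controls 47 and 50, and 0.140% and 0.122% in mutants 51 and 54.

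**Figure D1:**
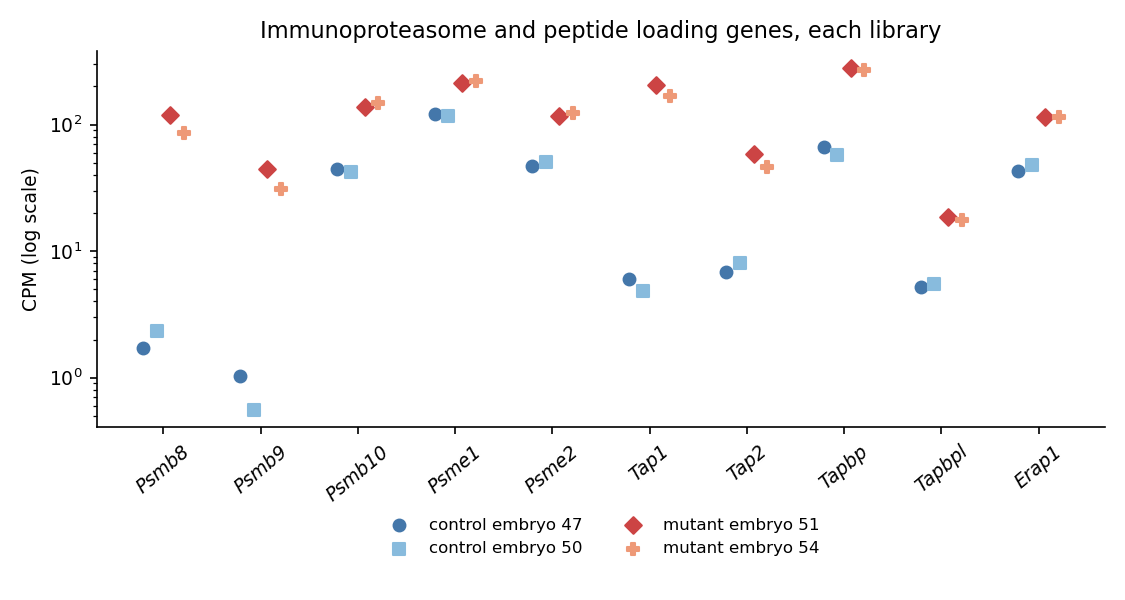
CPM of each of the 10 genes in each of the 4 libraries, on a log axis, with 1 point per embryo. The mutant points lie above the control points for every gene, with the widest gaps for Psmb8, Psmb9 and Tap1, whose controls lie between 0.553 and 5.98 CPM.

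Psmb8, whose product provides the chymotrypsin-like site of the immunoproteasome, was among the least abundant members in the controls and changed most. It stood at 1.72 and 2.35 CPM in controls 47 and 50, and at 120 and 85.5 CPM in mutants 51 and 54. The mutant values were far above both controls and differed from each other more than those of most other members. This corresponds to a log2 fold change of 5.08, with an SE of 0.22 and a limma adjusted p of 1.09e-05, and 0.377% of the genes tested had a larger one.

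Psmb9, which encodes another catalytic subunit, had the lowest level of the members in the controls. It was read 9 and 4 times there, that is 1.03 and 0.553 CPM, and stood at 44.7 and 31.1 CPM in the mutants. Since 1 control lay below 1 CPM, Psmb9 passed the filter of 1 CPM in 2 libraries only through the mutants. The 13 control reads carry an exact Poisson 95% interval from 6.92 to 22.2 reads, so its ratio of 47.8 between the group means rests on few control reads. In limma its log2 fold change reached 4.43, with an SE of 0.27 and an adjusted p of 5.91e-05.

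Psmb10, the third catalytic subunit, differed from both in having a substantial control level. It was at 44.8 and 42.0 CPM in the controls and at 139 and 148 CPM in the mutants. The groups were apart and each was narrow, at 43.4 ± 1.97 and 143 ± 6.39 CPM (SD, n = 2 each). Its log2 fold change of 1.70 (SE 0.11, limma adjusted p = 0.000112) was lower than those of Psmb8 and Psmb9.

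The constitutive subunits that these 3 proteins replace did not rise. Psmb5 stood at 38.9 and 45.4 CPM in the controls and at 34.0 and 29.0 CPM in the mutants, or -0.41 on the log2 scale (SE 0.15, limma adjusted p = 0.0734). Psmb6 was at 144 and 133 CPM against 127 and 124 CPM, with a log2 fold change of -0.14 and no call. Psmb7 fell from 166 and 172 CPM to 128 and 130.0 CPM, or by 0.38 on the log2 scale (SE 0.11, limma adjusted p = 0.0369). The Psmb7 call was lost without either control (adjusted p = 0.190 and 0.223) and with DESeq2 (adjusted p = 0.0970), while Psmb5 passed with upper-quartile scaling and quantile normalization (0.0407 and 0.0481).

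Within each library the ratio of CPM between an inducible subunit and its constitutive counterpart is free of scaling between libraries. Psmb8 over Psmb5 was 0.0444 and 0.0518 in the controls and 3.54 and 2.95 in the mutants, so reads of the inducible gene went from a small fraction of those of the counterpart to several times as many. Psmb9 over Psmb6 was 0.00718 and 0.00415 against 0.352 and 0.251, and it stayed below 1. Psmb10 over Psmb7 was 0.270 and 0.244 against 1.08 and 1.14. The mean log2 change of the ratio was 6.07, 5.77 and 2.11 for the 3 pairs in that order. An exact two-sided permutation test gave p = 0.33 for each, the smallest that 2 against 2 libraries can give, so these ratios carry no test past a threshold. Per kilobase of exon, Psmb8 reached 0.940 and 0.785 of the level of Psmb5 in the mutants, Psmb9 0.180 and 0.128 of Psmb6, and Psmb10 2.16 and 2.28 times Psmb7. These per-kilobase ratios use all annotated exons of each gene, which may not all be used in heart.

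**Figure D2:**
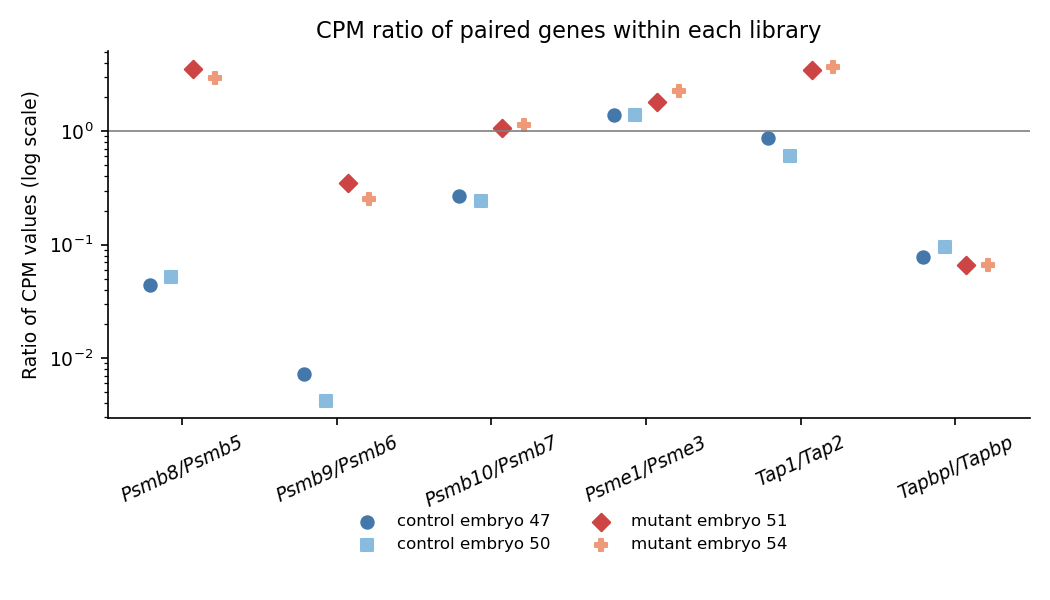
Ratio of CPM between paired genes within each library, on a log axis, with 1 point per embryo and a line at equal CPM. Both mutants lie above both controls for every pair except Tapbpl over Tapbp, where they lie just below.

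PA28 is a ring that opens the barrel of the proteasome, and its alpha and beta subunits are encoded by Psme1 and Psme2. Psme1 was the most abundant member in the controls and changed least, at 122 and 117 CPM in the controls and 213 and 221 CPM in the mutants. The groups did not overlap, and Psme1 rose by 0.85 on the log2 scale (SE 0.11, limma adjusted p = 0.0024). This was the only member whose call depended on a library, since its adjusted p was 0.0685 without control 47 and 0.0721 without control 50. Psme2 stood at 47.4 and 51.0 CPM in the controls and 116 and 123 CPM in the mutants, a rise of 1.27 on the log2 scale (SE 0.12, limma adjusted p = 0.000464). Psme2b on chromosome 11, whose transcript is 99.4% identical to that of Psme2 over 794 bases, was at 8.16 and 5.81 CPM in the controls and 17.7 and 20.1 CPM in the mutants, so the split of reads between the pair is uncertain. Psme3, which encodes the related PA28 gamma, was at 88.6 and 84.5 CPM in the controls and 117.5 and 96.6 CPM in the mutants, and did not pass the test (log2 fold change 0.30, limma adjusted p = 0.125), although it did without mutant 54 (adjusted p = 0.0245). The ratio of Psme1 to Psme3 was 1.38 and 1.39 in the controls and 1.81 and 2.29 in the mutants.

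The transporter genes differed in size of response. Tap1 stood at 5.98 and 4.84 CPM in controls 47 and 50 and at 206 and 168 CPM in mutants 51 and 54. Its log2 fold change of 4.87 (SE 0.16, limma adjusted p = 3.52e-06) had the smallest adjusted p of the members. Tap2, which encodes the partner subunit of the same transporter, stood at 6.90 and 8.02 CPM in the controls and at 58.9 and 45.9 CPM in the mutants, a log2 fold change of 2.65 (SE 0.18, limma adjusted p = 0.00012). Tap1 over Tap2 was 0.867 and 0.603 in the controls and 3.50 and 3.65 in the mutants, a mean log2 change of 2.30, with all mutant ratios above all control ratios (exact permutation p = 0.33, the smallest possible).

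Tapbp encodes tapasin, which tethers class I molecules to the transporter, and it was the most abundant member by CPM in the mutants. It stood at 66.8 and 57.9 CPM in the controls and at 280 and 268 CPM in the mutants, a log2 fold change of 2.12 (SE 0.12, limma adjusted p = 5.00e-05). Tapbpl, whose product edits peptides outside the transporter complex, stood at 5.17 and 5.53 CPM in the controls and at 18.7 and 17.7 CPM in the mutants, a rise of 1.60 on the log2 scale (SE 0.19, limma adjusted p = 0.0015). The tapasin relative remained the rarer transcript, with a ratio to Tapbp of 0.0775 and 0.0955 in the controls and 0.0667 and 0.0660 in the mutants. Erap1, the aminopeptidase, stood at 43.1 and 48.0 CPM in the controls and at 115 and 116 CPM in the mutants. Its mutants were nearly equal, and Erap1 rose by 1.32 on the log2 scale (SE 0.12, limma adjusted p = 0.000409).

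Ordered by CPM per kilobase of annotated exon, the members ran in the controls from Psme1 at 54.2 through Psme2 (27.9), Psmb10 (25.5), Tapbp (17.2), Erap1 (6.26), Tapbpl (2.28), Tap2 (1.97), Tap1 (0.988) and Psmb8 (0.603) to Psmb9 at 0.217. The library values of neighbours in this order did not overlap in the controls, but counting error was not weighed. In control 47, for example, Psme2 was at 26.8 (412 reads) and Psmb10 at 26.3 (390 reads). In the mutants Psme1 was still first at 98.3, followed by Psmb10 (83.9), Tapbp (75.6) and Psme2 (67.9). Tap1 (34.1) and Psmb8 (30.4) came next and overlapped each other, then Erap1 (15.8), Tap2 (13.9) and Psmb9 (10.4), of which the last pair overlapped, and Tapbpl was last at 7.74. The ratio of the highest to the lowest of these levels was 249.7 in the controls and 12.7 in the mutants. In log2 fold change, Psmb8 and Tap1 overlapped between the mutants, and the other neighbours in the order did not. That comparison leaves out counting error and the spread of the controls. Erap1, for example, rose by 1.32 in mutant 51 and Psme2 by 1.31 in mutant 54, with limma SEs of 0.12 each.

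The mutant libraries differed from each other by more than counting error in 4 of the 10 members, Psmb9, Tap1, Psmb8 and Tap2, which are neighbours on chromosome 17. The same interval excluded 1 for 39.1% of all genes tested and for 46.6% of the genes that rose, so such a difference is not particular to these members. All 4 were higher in mutant 51, and 31.9% of the genes that rose were higher there beyond counting error. The ratio of CPM in mutant 51 to mutant 54 was 1.44 for Psmb9 (exact 95% counting interval 1.23 to 1.69), 1.40 for Psmb8 (1.28 to 1.54), 1.28 for Tap2 (1.12 to 1.46) and 1.23 for Tap1 (1.14 to 1.32). For the other 6 members it lay between 0.939 and 1.06, and each interval included 1. The class I chains showed the same direction, with B2m at 1190 and 715 CPM and H2-K1 at 1059 and 433 CPM in mutants 51 and 54. Mitochondrial transcripts made up 2.08% of the reads in mutant 51 and 4.31% in mutant 54, against 6.14% and 6.93% in the controls. The summed CPM of the listed leukocyte markers was 261 in mutant 51 and 181 in mutant 54. The part of these differences in the member values was not tested.

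**Figure D3:**
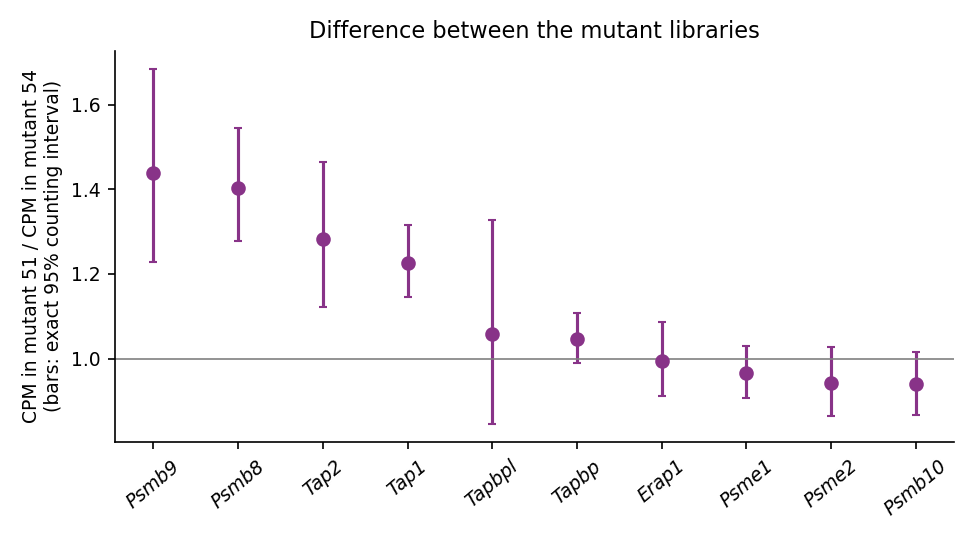
Ratio of CPM in mutant 51 to CPM in mutant 54 for each of the 10 genes, with exact 95% intervals that cover counting error only and a line at 1. The intervals of Psmb9, Psmb8, Tap2 and Tap1 lie above 1, and those of the other 6 genes include it.

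By GENCODE M21 on GRCm38, 4 of the members lie next to one another in the class II region of the MHC on chromosome 17. These are Psmb9 (34181987 to 34187764, minus strand), Tap1 (34187553 to 34197225), Psmb8 (34197721 to 34201454) and Tap2 (34203527 to 34216321), the last 3 on the plus strand. Tapbp lies on the same chromosome at 33915899 to 33929292. Psme1 (55578123 to 55581529, plus strand) and Psme2 (55587441 to 55591113, minus strand) are neighbours on chromosome 14. Psmb10 is on chromosome 8 (105935735 to 105938444), Tapbpl on chromosome 6 (125223933 to 125231860) and Erap1 on chromosome 13 (74639568 to 74693201).

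Neighbouring genes did not all change with the members. Within 100 kb of any member, 61 other genes were tested, of which 15 rose and 8 fell, with a median log2 fold change of -0.02. Over all genes tested, 17.8% rose and 14.2% fell. Around the chromosome 17 cluster 3 of 5 rose. Of these, Brd2, a bromodomain protein gene, rose by 1.13 on the log2 scale (SE 0.12), while the class II genes H2-DMa and H2-Ab1 were at 2.20 and 2.03 CPM on average in the mutants and did not pass. The other 2 lie on the strand opposite to members. Gm20496, which overlaps Psmb8 and Tap2, was at 2.53 and 1.11 CPM in the controls and 81.7 and 53.3 CPM in the mutants, and Gm15821, which overlaps Tap2, was at 1.95 and 4.15 against 25.8 and 26.9 CPM. Gm19412, antisense to Tapbp, was at 14.9 and 12.9 CPM in the controls and 63.3 and 62.9 CPM in the mutants, while Gm16156, which overlaps all of Psmb10 on the other strand, was not called (11.8 and 10.1 against 17.7 and 15.8 CPM). The strand setting of the authors' counting is not given in the sources used here, so reads of these pairs cannot be told apart. Zbtb22 overlaps Tapbp by 3422 bases on the same strand, where no strand setting would separate reads. It was at 28.5 and 26.6 CPM in the controls and 19.6 and 28.8 CPM in the mutants, and was not called. Psmb9 and Tap1 themselves overlap by 212 bases on opposite strands in this annotation, and Vamp1 overlaps all of Tapbpl on the other strand (13.2 and 16.9 against 10.7 and 11.6 CPM, not called).

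Around Psme1 and Psme2, 4 of 17 tested neighbours rose and 3 fell, beside 17.8% and 14.2% of all genes tested. Irf9, which encodes a subunit of the interferon-activated factor ISGF3 and lies 12458 bases from Psme2, stood at 17.9 and 22.1 CPM in the controls and 195 and 229 CPM in the mutants (log2 fold change 3.35, SE 0.15). Rnf31, which encodes a ubiquitin ligase of the linear chain complex and lies 595 bases from Psme2, rose by 1.75 (SE 0.13). Emc9, which lies between Psme1 and Psme2, was at 12.4 and 12.9 CPM in the controls and 8.16 and 13.3 CPM in the mutants and was not called. Beside Tapbp, Daxx, which encodes a histone chaperone, rose by 2.74 (SE 0.13) and lies 309 bases from the GENCODE start of Tapbp. The RefSeq start of Tapbp is further away, past Zbtb22, which was not called (log2 fold change -0.20). Rgl2, 251 bases from Tapbp on the other side, had a log2 fold change of -0.36 and was not called.

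**Figure D4:**
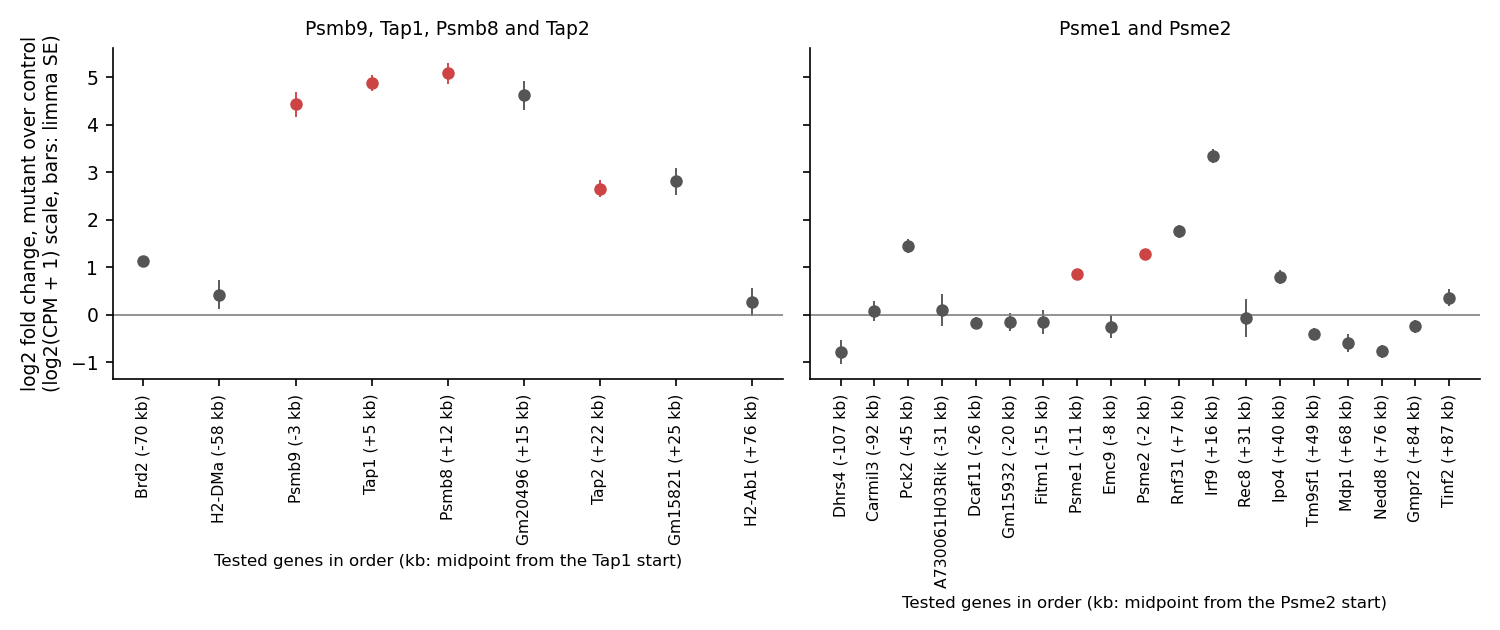
Log2 fold change (mutant over control, bars are limma standard errors) of the tested genes around the chromosome 17 cluster and around Psme1 and Psme2, in genome order, with members in red and other genes in grey. Members and some neighbours such as Gm20496 and Irf9 lie high, while H2-DMa, H2-Ab1 and Emc9 lie near 0.

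The rest of the proteasome was set beside the members from lists of its subunits. The 32 constitutive genes were the 3 beta counterparts, 11 other genes of the core barrel and 18 of the regulatory cap. Of these, 2 rose, 4 fell and 26 did not pass, beside 17.8% of all genes tested that rose and 14.2% that fell. The median log2 fold change of the 32 was -0.16. The genes that rose were Psmd11 (0.60, SE 0.13) and Adrm1 (0.59, SE 0.12), a cap scaffold and a ubiquitin receptor. Besides Psmb7, those that fell were Psma2 in the core, and Psmc3 and Psmd13 in the cap, by 0.39 to 0.49 on the log2 scale. These falls depend on the setting, since 9 of the 32 fell with upper-quartile scaling or quantile normalization and 0 with DESeq2, while the 2 rises held in all 3. Without control 47 or control 50, 0 of the 32 passed in either direction, and Psma2 and Psmd13 were also lost without mutant 54 (adjusted p = 0.0745 and 0.0541). Pomp, a chaperone that assembles the barrel and is known to favour immunoproteasome assembly, fell from 77.1 and 86.4 CPM to 45.5 and 47.7 CPM, a log2 fold change of -0.80 (SE 0.12, limma adjusted p = 0.0043), and lost its call without either control (adjusted p = 0.0659 and 0.0839). The other 4 assembly genes, and the 3 genes for other caps and an inhibitor, did not pass.

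Among general protein folding genes of the endoplasmic reticulum, which encode chaperones and enzymes that act on sugar chains, 7 of 7 did not pass the test. Calr (calreticulin) was at 468 and 390 CPM in the controls and 375 and 269.8 CPM in the mutants, with a call only when mutant 51 was left out (limma adjusted p = 0.0200), and Pdia3, the disulfide isomerase bound to tapasin, was at 357 and 344 against 351 and 269 CPM. Of 7 peptidases other than Erap1, Lnpep, which encodes an endosomal aminopeptidase related to ERAP1, rose by 1.01 (SE 0.19, limma adjusted p = 0.0093), and 6 did not pass. The Lnpep value was 0.72 without control 47, when its adjusted p was 0.0931. The class I chains B2m, H2-K1 and H2-D1 all rose, with log2 fold changes of 3.46, 4.39 and 4.03. The H2 genes are related to one another, so their reads may be assigned with uncertainty, which was not measured. Of 8 regulators and receptors, Nlrc5, Stat2, Irf9 and Irf1 rose, by 6.14, 4.05, 3.35 and 3.22. Nlrc5, the class I transactivator, was at 0.345 and 0.830 CPM in the controls and 120 and 99.8 CPM in the mutants. It was read only 3 and 6 times in controls 47 and 50, so the size of its change rests on few control reads. Both control values lay below 1 CPM, so Nlrc5 passed the filter only through the mutants. Among the receptor genes, Ifngr2 fell by 0.63 (SE 0.14, limma adjusted p = 0.0154) and lost the call without either control (adjusted p = 0.163 and 0.115), and Ifngr1, Ifnar1 and Ifnar2 did not pass.

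**Figure D5:**
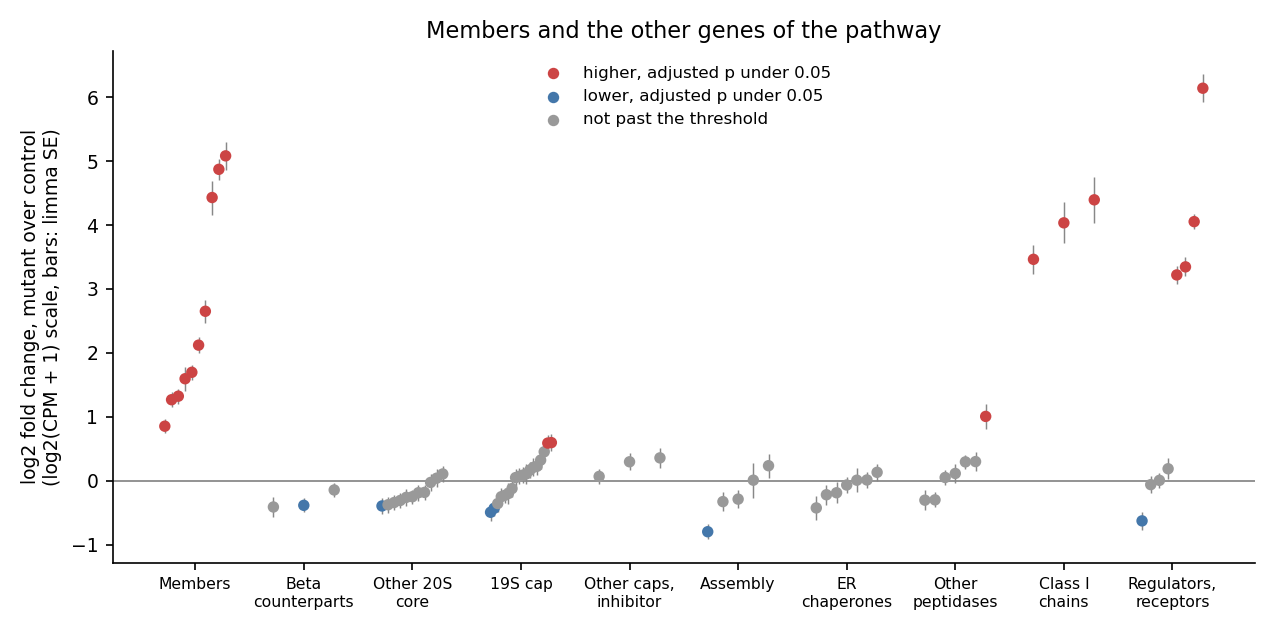
Log2 fold change (mutant over control, bars are limma standard errors) of the 10 members and of 65 other genes of the pathway by list, with red and blue for genes past the threshold. All 10 members, the 3 class I chains and 4 regulators lie above 0.8, and the constitutive subunits lie between -0.49 and 0.60.

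The 5 non-member genes whose profile over the 4 libraries lay nearest to the median profile of the members, by Euclidean distance of log2(CPM + 1) from the control mean, were Zfp346, Gm17617, Cyren, Zbtb2 and Kctd16, at distances from 0.0931 to 0.131. Zfp346, which encodes a zinc finger protein that binds double-stranded RNA, stood at 33.6 and 34.6 CPM in the controls and 131 and 140 CPM in the mutants. Kctd16, at 0.345 and 0.277 CPM in the controls, passed the filter only through the mutants. With 4 libraries many genes have such a profile, and the likeness is a description.

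In whole-heart RNA, more transcript per cell and more cells of a type that carries it cannot be told apart, and leukocytes express immunoproteasome genes constitutively. Of 41 leukocyte markers, 18 were tested, 6 rose and 1 fell, beside 17.8% and 14.2% of all genes tested. The other markers were absent from the deposited genes, each of which reached at least 2.29 CPM in some library. The risers were Ptprc, Cd68, C1qa, C1qb, C1qc and Fcgr1, of which Fcgr1 is itself interferon-inducible, and the macrophage receptor gene Mrc1 fell by 0.80 (SE 0.16). Ptprc, the pan-leukocyte gene for CD45, was at 3.56 and 2.49 CPM in the controls and at 20.02 and 9.85 CPM in the mutants, a log2 fold change of 1.92 (SE 0.34). Csf1r, the macrophage growth factor receptor gene, was at 39.3 and 29.9 CPM against 34.7 and 32.3 CPM. Of the 13 macrophage markers, 12 were listed, none was at 0 in any library, and their summed level was 142 to 166 CPM in the controls and 169 to 240 CPM in the mutants. Of 13 lymphocyte markers 1 was listed (Gzma, at 0.345 and 0.553 against 6.42 and 1.31 CPM), with no listed value at 0. Gzma passed the filter only through the mutants and was not called in the main test (limma adjusted p = 0.0688). It was called with DESeq2 and with edgeR and TMM or RLE (adjusted p = 0.0080, 0.0384 and 0.0401). With other pseudocounts, no filter, upper-quartile scaling or quantile normalization it was not called (limma adjusted p from 0.0600 to 0.172). Its log2 fold change was 2.36 without mutant 54 and 0.67 without mutant 51. The 4 listed dendritic cell and class II markers summed to 6.21 and 9.27 CPM against 12.8 and 8.78 CPM, and the 1 listed neutrophil marker of 6, S100a9, was at 1.84 and 4.84 against 1.96 and 1.54 CPM. The 6 rises were 0 without either control and 3 without mutant 51. The part of leukocytes in the member values was not tested.

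Some marker transcripts of other cell types also differed between the groups, beside 17.8% of all genes tested that rose and 14.2% that fell. Of 8 heart muscle markers, Myl2 and Myl7 fell by 1.17 and 1.51, and the summed level of the 8 was 49105 and 38718 CPM in the controls against 20143 and 31090.0 CPM in the mutants. Of 6 fibroblast and epicardial markers, Pdgfra, Dcn and Upk3b fell, and 0 of 6 endothelial markers passed, with sums of 921 and 1156 CPM against 907 and 947 CPM. The part of these shifts in the member values was not tested.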

How the data were processed

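Per the labels' protocols, RNA was extracted with Trizol and poly(A)-selected directional libraries were sequenced as paired ends. Software listed in the submitters' processing notes comprises DESeq, STAR, edgeR 3.10 and fastp 0.20.0, and the build is GRCm38. How reads were counted, and on which strand and gene models, is not given in the sources used here. Per the file headers the 4 sample columns hold CPM; they sum to between 935156 and 1034350, so this deposited signal was normalized by more than the plain read total. The authors also deposited mean log2 CPM, an F score, p-values and FDRs. In the authors' deposited table the FDR of the 10 members lay between 1.27e-05 and 0.0031. The deposited logFC score had a median ratio of 0.500 to the log2 ratio of group means, so it was not used.

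Whole reads were recovered as multiples of 1 step per column (100% of values, tolerance 0.001). Replicates differed beyond sampling noise (chi-square per degree of freedom 8.47 in the controls and 24.8 in the mutants). Symbols, positions and exon lengths came from GENCODE M21, which matched 14921 of 14936 identifiers. Genes reaching 1 CPM in 2 libraries were kept, and their log2(CPM + 1) was modelled on genotype alone by limma-trend, using limma 3.58.1 under R 4.3.3. The design had a form for counts, replaced because values are normalized. P-values rest on 2 embryos per group and on variances drawn toward a trend over all genes. Fold changes on this scale understate changes of low genes. Errors of fold changes are standard errors. Alternatives used edgeR 4.0.16 and DESeq2 1.42.0 on recovered reads, and other pseudocounts, filters and scalings. The limma and edgeR fits were checked on simulated data with known changes. The named genes were all members, the pathway lists, called markers, neighbours within 100 kb and the 5 nearest profiles. The regulator list as used leaves out 1 gene of the planned list, which is not reported here. The members and the gene lists were chosen with earlier results of these data known.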

Additional observations from a re-analysis of the deposited data

How the results depend on the processing

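No paired analysis was made because the labels used here give neither litters nor pairs of embryos. All 10 members passed under the 9 alternatives that keep every library and without mutant 51 or mutant 54, and 9 did so without control 47 or control 50, when Psme1 did not (0 fell under any of the 13 alternatives). The count of all genes past the threshold, 4750, was 4688 with edgeR and TMM, 4653 with edgeR and RLE and 3674 with DESeq2. It ranged from 571 to 5655 with 1 library left out (rises from 534 to 2905, falls from 37 to 2750), lowest without control 47, followed by 669 without control 50; the spread then comes from the mutants and the lone control is assumed to vary like them. The 2643 rises and 2107 falls became 2253 and 2963 with upper-quartile scaling and 2188 and 2738 with quantile normalization. Falls in the pathway lists, 6, were 12 with upper-quartile scaling, 12 with quantile normalization and 2 with DESeq2, and from 0 to 9 with 1 library left out. Rises of cell type markers, 6, were 3 with upper-quartile scaling and from 0 to 9 with 1 library left out, and their falls, 6, were 10 with DESeq2 and from 0 to 11. With ratios of CPM + 1, the log2 change was 5.49 for Psmb8 over Psmb5, 4.57 for Psmb9 over Psmb6 and -0.53 for Tapbpl over Tapbp. The cause of these shifts was not tested. Among the members, depth limits Psmb9 and Psmb8 most, with 13 and 32 control reads.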
